A study of Mus musculus with 8 samples.

Results

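Glycolysis, the entry of pyruvate into mitochondria and the tricarboxylic acid (TCA) cycle were examined through the transcripts of 37 named enzymes in the ileum of KKAy mice. Members were the probe sets whose gene symbol in the platform annotation was that of a listed enzyme. This gave 34 genes with 1 probe set each, out of 19505 gene symbols and 22206 probe sets. Gpi1, Eno1 and Pfkfb2 had no matched probe set and were not analysed here. KKAy mice carry the yellow agouti allele and become obese and diabetic. All were males, described as 30 g and aged 14 weeks, on high-fat chow (fat giving 45% of energy). After 4 weeks of this chow they were gavaged daily for 8 weeks, 1 group with voglibose at 1 mg/kg and the other with an equal volume of water. Each group held 4 mice with 1 array each, made from roughly 4 cm of ileum. Voglibose blocks enzymes that free glucose from starch and sucrose at the gut surface, and the comparison asks how the transcripts differ between treated and water mice.

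Glycolysis splits glucose into pyruvate, and its flux is set mainly at hexokinase, phosphofructokinase and pyruvate kinase. Pyruvate is then reduced to lactate, carboxylated to oxaloacetate, or converted to acetyl-CoA by the pyruvate dehydrogenase complex, and the TCA cycle oxidises acetyl-CoA inside mitochondria. Enterocytes take up glucose from the lumen and also burn glutamine from the blood, and several of the steps have isozymes with different tissue distribution.

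Signals are on a log2 scale, so a difference of 1 is a factor of 2, and a difference is always voglibose minus water. The 8 array medians lay between 5.89 and 5.94. The tissue differed widely between mice of the same group. Fabp6, the bile acid binding protein of the distal ileum, had a log2 signal of 8.51, 17.50, 14.11 and 4.01 in water mice 1 to 4, and 8.14, 3.54, 10.78 and 11.68 in voglibose mice 1 to 4. In water mouse 4 and voglibose mouse 2 this defining marker of the labelled tissue was thus below the lower quartile of the arrays (4.05 to 4.18), and water mouse 2 had the most. The means of the 6 distal ileal markers, each centred on the midpoint of its group means, were -2.17 and -2.29 in the first 2 of these mice and 3.60 in water mouse 2. Averaged by group they were 0.55 in water and -0.55 in voglibose mice, with an SD within groups of 1.99. Voglibose mouse 2 also carried pancreatic transcripts: amylase Amy2a5 had 14.09 there and 4.41 to 5.32 in the other mice, and the mean of the 4 pancreatic markers was 5.67 against -0.99 to -0.64. The 8 enterocyte markers were even, with list means from -0.06 to 0.08. Of the 76 markers of 15 cell types and regions, 0 had an unadjusted p under 0.05 (limma), against 7.52% of all probe sets, and 0 an adjusted one. In voglibose mice 39 were higher and 36 lower, but some lists were uneven. All 6 distal ileal and all 5 Paneth markers were lower, as were 5 of 6 for macrophages. All 4 pancreatic, 3 B cell and 2 erythrocyte markers were higher. The unadjusted 95% intervals had a median half-width of 0.55 over all markers and 2.05 over the distal ileal ones. Smaller differences in tissue make-up were thus mostly not detectable.

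Between the groups, most of the enzymes differed little. Differences over the 34 members ran from -0.56 (Pdha1) to 0.37 (Ogdh), with a median of -0.03 against -0.005 over all probe sets. Lower signal in voglibose mice was found for 18 members and higher signal for 16, where 50.9% of all probe sets were lower. The 95% intervals, which are not adjusted, had a median half-width of 0.44, so smaller differences than that were mostly not detectable with 4 mice a group. Larger ones could also be missed, since the adjustment over all probe sets is stricter than these intervals. None passed the test over all probe sets (limma with Benjamini-Hochberg adjustment, adjusted p from 0.652 to 0.999), and no probe set of the array did. At an unadjusted p under 0.05 stood 1 member, the muscle phosphofructokinase Pfkm, which is 2.94% of the members, while 7.52% of all probe sets did (3.08% higher and 4.44% lower in voglibose mice). It was also the only member of the 34 whose groups did not overlap, where 4.35% of all probe sets had groups apart (1.82% higher and 2.53% lower). Each share rests on 1 gene of 34, so neither is read as a difference from the background. The count at an unadjusted p under 0.05 was 4 without water mouse 2, 4 without voglibose mouse 4 and 2 without voglibose mouse 3, and Pfkm was among them each time. The others were Pdha1, Dlst and Mdh1 without water mouse 2, Pdha1, Dld and Sucla2 without voglibose mouse 4, and Hk1 without voglibose mouse 3, all lower in voglibose mice. Over all 22206 probe sets the count was 1830 without water mouse 2, 1760 without voglibose mouse 4 and 1906 without voglibose mouse 3. With all mice it was 1671.

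**Figure D1:**
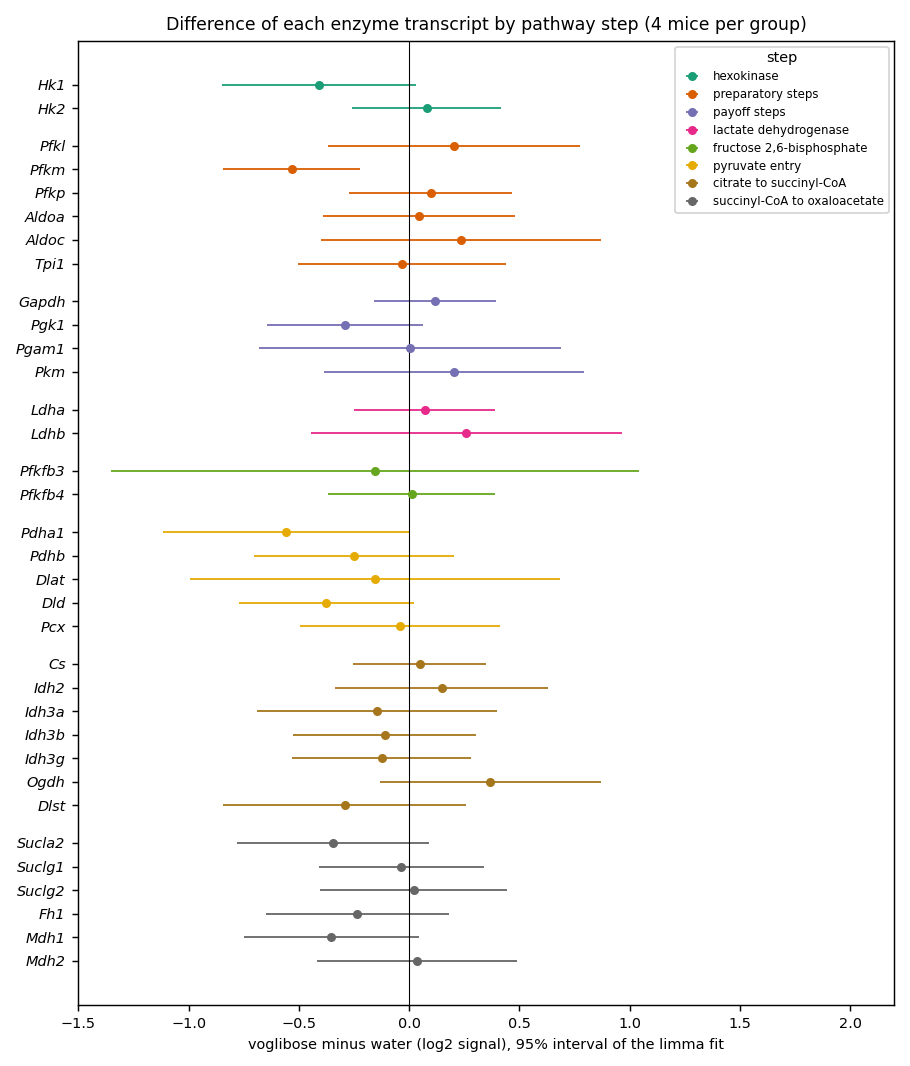
Difference of each of the 34 enzyme transcripts (horizontal axis, voglibose minus water in log2 signal; points, with the 95% interval of the limma fit), in pathway order with 1 colour per step. Pfkm is the member whose interval lies wholly below 0 (-0.84 to -0.22), and the upper end for Pdha1 is 0.002.

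Split by pathway, the glycolytic enzymes had 11 higher and 5 lower of 16 measured members, with a median difference of 0.06. The enzymes of pyruvate entry and the TCA cycle had 5 higher and 13 lower of 18, with a median of -0.14. Among all probe sets above the median signal, where 31 of the 34 members lie, 56.9% were lower in voglibose mice. Neither split was stable against single mice. Without water mouse 2 the glycolytic enzymes were 7 higher and 9 lower (median -0.029), and 7 and 9 also without water mouse 1. They were 8 and 8 without voglibose mouse 2. Without water mouse 4 the pyruvate and TCA enzymes were 9 higher and 9 lower (median 0.0029), and 9 and 9 also without voglibose mouse 3. Other omissions widened the splits. Without water mouse 2 the pyruvate and TCA enzymes were 3 higher and 15 lower (median -0.28). Without water mouse 4 the glycolytic enzymes were 13 higher and 3 lower (median 0.15). Leaving out single mice never made the higher pyruvate and TCA enzymes outnumber the lower ones. After a further quantile normalization the counts were 12 and 4 for glycolysis, and 6 and 12 for pyruvate and the TCA cycle.

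Hexokinases trap glucose in the cell by phosphorylating it. Hk1, the widely expressed isozyme, had a mean log2 signal of 8.15 ± 0.29 in water mice and 7.75 ± 0.32 in those given voglibose (± SD, n = 4 each). The difference was -0.41 ± 0.20 (± SE, as in every difference below), with a 95% interval from -0.85 to 0.03. The groups overlapped, and voglibose mouse 4 had the lowest signal, at 7.33. Leaving out water mouse 2 gave -0.27, as did leaving out voglibose mouse 4. Hk2, the insulin-regulated isozyme of muscle and fat, had 5.77, 6.13, 6.30 and 6.19 in water mice and 6.22, 6.0, 6.22 and 6.27 in voglibose mice. All but water mouse 1 lay within a narrow band near the array median, and the difference was 0.08 ± 0.15.

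Phosphofructokinase makes the committed step of glycolysis and is a tetramer of muscle (Pfkm), liver (Pfkl) and platelet (Pfkp) subunits. Pfkm had 5.25, 5.42, 5.29 and 5.09 in water mice and 4.69, 4.95, 4.66 and 4.62 in voglibose mice. Every voglibose mouse lay below every water mouse, with voglibose mouse 2 and water mouse 4 closest to each other. The difference was -0.53 ± 0.14 (95% interval -0.84 to -0.22), with unadjusted p = 0.00313 and adjusted p = 0.652 by limma. It ran from -0.61 to -0.48 when single mice were left out and was -0.66 without both water mouse 4 and voglibose mouse 2. Pfkm lay below the median signal of the array. In a piece of gut wall, fewer cells of a type and less RNA per cell cannot be told apart. The 8 smooth muscle markers had list means of -1.35 to 1.41 in water and -0.26 to 0.74 in voglibose mice. Of them 6 were higher and 2 lower in voglibose mice, with a list difference of 0.15 and an SD within groups of 0.87. In the water group both Pfkm and the list mean were highest in mouse 2 and lowest in mouse 4. In the voglibose group Pfkm was highest in mouse 2 and the list mean in mouse 3. Of the 5 skeletal muscle markers 4 lay below the median signal, and 3 were higher and 2 lower. The part of the muscle layer in the difference was not tested.

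The liver and platelet subunits gave no difference beyond the spread between mice. Pfkl had 7.91, 8.19, 8.03 and 8.46 in water mice and 8.85, 8.81, 8.09 and 7.66 in voglibose mice, so voglibose mice held both the highest and the lowest signal. Its difference was 0.21 ± 0.26, from 0.039 without voglibose mouse 1 and 0.052 without voglibose mouse 2 to 0.44 without voglibose mouse 4. Pfkp differed by 0.10 ± 0.17, with 14.43 ± 0.26 in water and 14.53 ± 0.18 in voglibose mice. The difference of Pfkm relative to the other subunits was tested on the log2 ratio in each mouse. The Pfkm to Pfkp ratio was lower by 0.63 in voglibose mice, from -9.60 to -8.65 in water and -9.92 to -9.65 in voglibose mice, with groups that did not overlap. Its exact 2-sided permutation p was 0.0286, the smallest that 4 against 4 mice allow, and 0.371 after adjustment over the 13 ratios computed. A ratio that alone reaches this smallest p cannot pass the adjustment. The Pfkm to Pfkl ratio was lower by 0.74 with overlapping groups (exact permutation p = 0.0571, adjusted 0.371). Without any 1 of the voglibose mice the p of the Pfkm to Pfkp ratio became 0.0571, with differences from -0.68 to -0.59.

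Start regions of 3 members are shown to give the sequence context of the most separated member (Pfkm), the most variable (Pfkfb3) and the bright, even Ldha. The windows printed are those that hold ACGTG. The table lists 4 starts for Pfkm and 2 for Ldha, and Pfkm starts 3 and 4 and Ldha start 2 held neither motif. Each is the 250 bases before an annotated start, read in the direction of transcription, from RefSeq on GRCm38.p6. Capitals mark ACGTG on either strand, a form of the core bound by hypoxia-inducible factor, which also forms part of the E-box CACGTG bound by MYC, USF and, in pairs, the glucose-responsive factor ChREBP. The windows are Pfkm start 1 (chr15:98092339-98092588, plus strand), Pfkm start 2 (chr15:98108221-98108470, plus strand), Pfkfb3 start 1 (chr2:11553930-11554179, minus strand), Pfkfb3 start 2 (chr2:11502091-11502340, minus strand) and Ldha start 1 (chr7:46845554-46845803, plus strand).
Pfkm start 1: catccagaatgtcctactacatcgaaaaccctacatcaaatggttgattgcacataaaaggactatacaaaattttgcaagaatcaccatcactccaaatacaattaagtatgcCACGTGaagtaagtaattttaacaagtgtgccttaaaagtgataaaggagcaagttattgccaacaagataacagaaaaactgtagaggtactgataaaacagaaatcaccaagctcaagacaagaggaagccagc
Pfkm start 2: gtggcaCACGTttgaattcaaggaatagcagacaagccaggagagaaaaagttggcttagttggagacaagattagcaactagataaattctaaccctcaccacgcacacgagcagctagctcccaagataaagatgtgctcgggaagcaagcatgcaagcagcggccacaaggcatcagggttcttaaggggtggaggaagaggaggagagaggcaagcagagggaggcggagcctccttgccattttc
Pfkfb3 start 1: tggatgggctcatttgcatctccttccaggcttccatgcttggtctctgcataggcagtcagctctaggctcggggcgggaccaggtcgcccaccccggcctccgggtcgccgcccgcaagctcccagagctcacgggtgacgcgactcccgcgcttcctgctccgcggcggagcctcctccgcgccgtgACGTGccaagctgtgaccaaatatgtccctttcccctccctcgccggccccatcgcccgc
Pfkfb3 start 2: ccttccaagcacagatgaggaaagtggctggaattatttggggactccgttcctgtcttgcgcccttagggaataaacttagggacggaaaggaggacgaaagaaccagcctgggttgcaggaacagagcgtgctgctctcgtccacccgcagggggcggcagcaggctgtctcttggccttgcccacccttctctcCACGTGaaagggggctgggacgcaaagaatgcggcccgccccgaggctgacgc
Ldha start 1: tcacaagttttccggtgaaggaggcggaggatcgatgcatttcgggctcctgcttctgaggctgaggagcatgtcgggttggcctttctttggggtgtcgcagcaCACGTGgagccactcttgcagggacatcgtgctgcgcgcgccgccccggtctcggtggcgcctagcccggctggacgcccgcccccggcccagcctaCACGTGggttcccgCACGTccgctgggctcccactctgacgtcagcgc
Ldha start 1 held 2 copies of CACGTG, and Pfkm start 1 and Pfkfb3 start 2 held 1 each. Over the 36 listed enzymes with a start in the table, 8 of 56 windows contained CACGTG (14.3%), from 6 genes, against 6.02% of all 32851 windows of the same length. ACGTG on either strand, which every CACGTG contains, was in 23 of the 56 windows (41.1%) and in 16.6% of all windows. Windows of 1 gene can overlap. TNAAGGTCA, the site of oestrogen-related receptors, on either strand was in 0 of the 56 windows and in 1.14% of all windows. These matches describe the letters of the windows. Which start was used was not measured here.

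The aldolases, which cut fructose bisphosphate into trioses, and triose phosphate isomerase, which interconverts them, did not differ beyond the spread between mice. Aldoa had 14.62 ± 0.21 in water and 14.67 ± 0.37 in voglibose mice (difference 0.05 ± 0.20). Aldoc, the isozyme of nerve tissue, differed by 0.24 ± 0.29, with signals from 5.48 (water mouse 1) to 7.02 (voglibose mouse 2). It differed by 0.0092 without water mouse 1, by 0.026 without voglibose mouse 2 and by 0.40 without voglibose mouse 4. Tpi1 differed by -0.03 ± 0.21 and was highest in water mouse 4, at 15.06.

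The second stretch of glycolysis, which returns ATP and NADH, was also nearly even. Gapdh, the dehydrogenase that makes NADH here, had 17.69 ± 0.09 in water mice against 17.80 ± 0.05 after voglibose. The difference was 0.12 ± 0.13, and the spread within its groups was smaller than that of all but 0.572% of probe sets. Pgk1, phosphoglycerate kinase, was lower by 0.29 ± 0.16 (95% interval -0.64 to 0.06). Pgam1, phosphoglycerate mutase, differed by 0.0025 ± 0.31, with signals from 9.80 to 11.13. Pkm, the pyruvate kinase of most tissues outside the liver, had 15.97, 15.31, 16.08 and 16.73 in water mice and 16.37, 16.56, 15.96 and 16.01 in voglibose mice. Water mice 2 and 4 held its lowest and highest signal, and the difference of 0.20 ± 0.27 became -0.035 without water mouse 2 and 0.44 without water mouse 4. Its single probe set gives no split by Pkm splice form. Several glycolytic genes, Gapdh and Ldha among them, have near-identical pseudogenes, and signal from these cannot be told apart here.

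Lactate dehydrogenase converts pyruvate to lactate and back, with the A subunit favoured in glycolytic and the B subunit in oxidative tissue. Ldha had 17.25, 17.11, 17.05 and 17.47 in water mice and 17.41, 17.15, 17.35 and 17.25 in voglibose mice. All mice lay within 0.42 of each other, and the difference was 0.07 with a 95% interval from -0.25 to 0.39. Ldhb had 4.82, 5.72, 4.50 and 5.24 in water mice and 4.65, 5.25, 6.13 and 5.29 in voglibose mice. This signal was dim and spread widely, with its highest value in voglibose mouse 3 and a difference of 0.26 ± 0.32 (-0.0067 without that mouse). The Ldhb to Ldha ratio differed by 0.19 (exact permutation p = 0.657).

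PFKFB enzymes make and break fructose bisphosphate at positions 2 and 6, the strongest activator of phosphofructokinase. Pfkfb3, the form with the highest kinase activity, had 7.93, 6.60, 8.10 and 9.45 in water mice and 8.13, 8.95, 7.14 and 7.24 in voglibose mice. The 2 highest signals were those of water mouse 4 and voglibose mouse 2, the mice without Fabp6 signal, and the lowest was that of water mouse 2, the mouse with the most. Its range of 2.85 was the widest among the members, and its spread within groups exceeded that of 99.1% of probe sets. The group difference was -0.16 ± 0.54, from -0.63 without water mouse 2 to 0.32 without water mouse 4. Pfkfb4 had 11.09 ± 0.26 in water and 11.10 ± 0.20 in voglibose mice, and its highest signals within each group were in the same 2 mice (11.47 and 11.35).

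**Figure D2:**
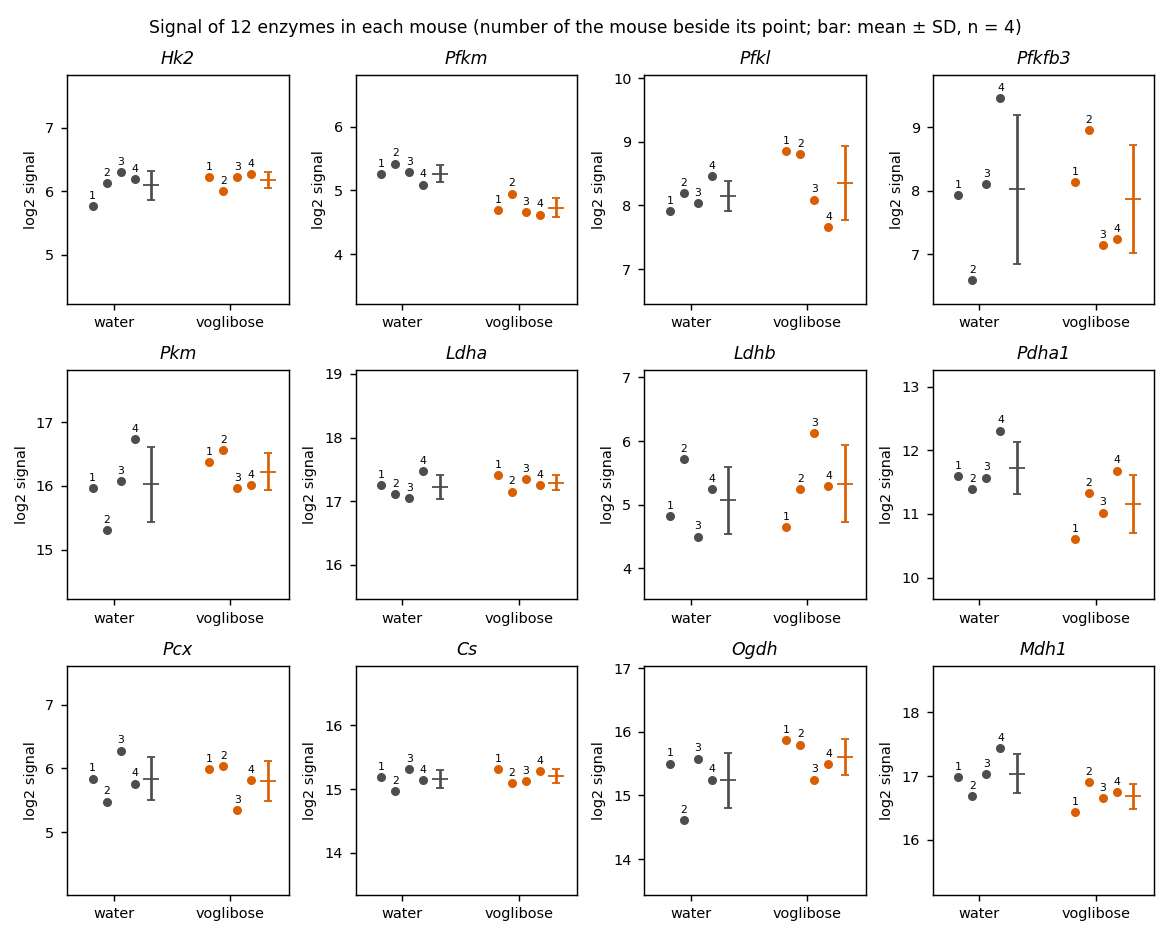
Log2 signal (vertical axis, the same span in every panel) of 12 enzymes in each mouse, with the number of the mouse above its point and the mean ± SD of each group of 4 beside it. The groups stand apart for Pfkm, and Pfkfb3 ranges from 6.60 in water mouse 2 to 9.45 in water mouse 4.

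Pyruvate entry showed lower signal in voglibose mice for 5 of 5 enzymes, with a median difference of -0.25. Among all probe sets above the median signal 56.9% were lower. The count was 2 higher and 3 lower without voglibose mouse 3, and 1 and 4 without water mouse 3 or water mouse 4. Without voglibose mouse 1 the median was -0.13. None of the 5 enzymes reached an unadjusted p under 0.05 with all mice and the standard variance model. With trend and robust variance fitting, Pdha1 (limma unadjusted p = 0.0386) and Dld (0.0437) did. Pdha1 encodes the catalytic alpha subunit of pyruvate dehydrogenase, which its kinases phosphorylate to switch the complex off. It had 11.60, 11.39, 11.57 and 12.31 in water mice and 10.61, 11.33, 11.02 and 11.68 in voglibose mice. All voglibose mice but mouse 4 lay below the lowest water mouse, and mouse 4 overlapped the water group. The difference was -0.56 ± 0.25 (95% interval -1.12 to 0.002; limma unadjusted p = 0.0509, adjusted p = 0.659). Leaving out single mice gave -0.73 (voglibose mouse 4) to -0.36 (water mouse 4).

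The other subunits of the complex followed the same direction by smaller amounts. The beta subunit Pdhb differed by -0.25 ± 0.21, the acetyltransferase core Dlat by -0.16 ± 0.38 and the dihydrolipoyl dehydrogenase Dld, which other dehydrogenase complexes share, by -0.38 ± 0.18 (95% interval -0.77 to 0.02). The median of the 4 subunits was -0.31 and was -0.25 after a further quantile normalization. When single mice were left out it ran from -0.44 (water mouse 2) to -0.18 (voglibose mouse 1). The other variance models, the replicate block and the filter on dim probe sets cannot change this median, so they say nothing about its stability. Pdhb ranged from -0.39 (voglibose mouse 4 left out) to -0.11 (water mouse 4 left out), and Dld was -0.23 without voglibose mouse 1. Dlat had the opposite sign, at 0.19 without water mouse 4, where its signal was highest (11.66), and 0.014 without voglibose mouse 3. Pcx, pyruvate carboxylase, which refills the TCA cycle with oxaloacetate, had 5.84, 5.48, 6.28 and 5.76 in water mice and 5.99, 6.03, 5.35 and 5.82 in voglibose mice. Its groups overlapped, with a difference of -0.04 ± 0.21. The Pdha1 to Pcx ratio was lower by 0.52 (exact permutation p = 0.229), and by 0.27 without voglibose mouse 1. The Pdha1 to Ldha ratio, between the oxidative and the lactate branch, was lower by 0.63 (exact permutation p = 0.0857, adjusted 0.371), and by 0.40 without voglibose mouse 1.

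From citrate to succinyl-CoA, 3 of 7 enzymes were higher and 4 lower. Citrate synthase (Cs), which condenses acetyl-CoA with oxaloacetate, had 15.19, 14.97, 15.31 and 15.14 in water mice and 15.31, 15.09, 15.12 and 15.28 in voglibose mice. Its range over all mice was 0.34, and the difference of 0.05 had a 95% interval from -0.26 to 0.35. Idh3a, Idh3b and Idh3g, the subunits of the NAD-dependent isocitrate dehydrogenase, differed by -0.15 ± 0.25, -0.11 ± 0.19 and -0.13 ± 0.18. Each was highest in water mouse 4 (15.45, 13.63 and 15.57), and without that mouse the differences were 0.048, 0.047 and 0.045. Idh2, the NADP-dependent mitochondrial isozyme, differed by 0.15 ± 0.22 and was highest in water mouse 2 (10.90) and lowest in voglibose mouse 2 (10.00). Ogdh, the first subunit of the oxoglutarate dehydrogenase complex, had 15.50, 14.61, 15.58 and 15.25 in water mice and 15.87, 15.80, 15.25 and 15.49 in voglibose mice. Water mouse 2 was lowest, and the difference of 0.37 ± 0.23 was 0.16 without it. Dlst, the core of the same complex, differed by -0.29 ± 0.25, from -0.53 without water mouse 2 to -0.093 without water mouse 4.

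From succinyl-CoA to oxaloacetate, 2 of 6 enzymes were higher and 4 lower. Sucla2, the ADP-forming beta subunit of succinyl-CoA synthetase, had 7.12 ± 0.26 in water and 6.77 ± 0.34 in voglibose mice (difference -0.35 ± 0.20, and -0.22 without voglibose mouse 1). The GTP-forming subunit Suclg2 differed by 0.02 ± 0.19 and the shared alpha subunit Suclg1 by -0.04 ± 0.17. Fumarase (Fh1), which hydrates fumarate to malate, was lower by 0.24 ± 0.19, and by 0.085 without water mouse 4. Mdh1, the cytosolic malate dehydrogenase of the malate-aspartate shuttle, had 17.04 ± 0.31 in water and 16.68 ± 0.20 in voglibose mice (difference -0.35 ± 0.18, 95% interval -0.75 to 0.05), and differed by -0.22 without water mouse 4. The mitochondrial isozyme Mdh2 differed by 0.04 ± 0.21. The Mdh2 to Mdh1 ratio was higher by 0.39 in voglibose mice (exact permutation p = 0.114, adjusted 0.371), and the Suclg2 to Sucla2 ratio by 0.37 (p = 0.257, exact permutation; 0.19 without water mouse 4).

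**Figure D3:**
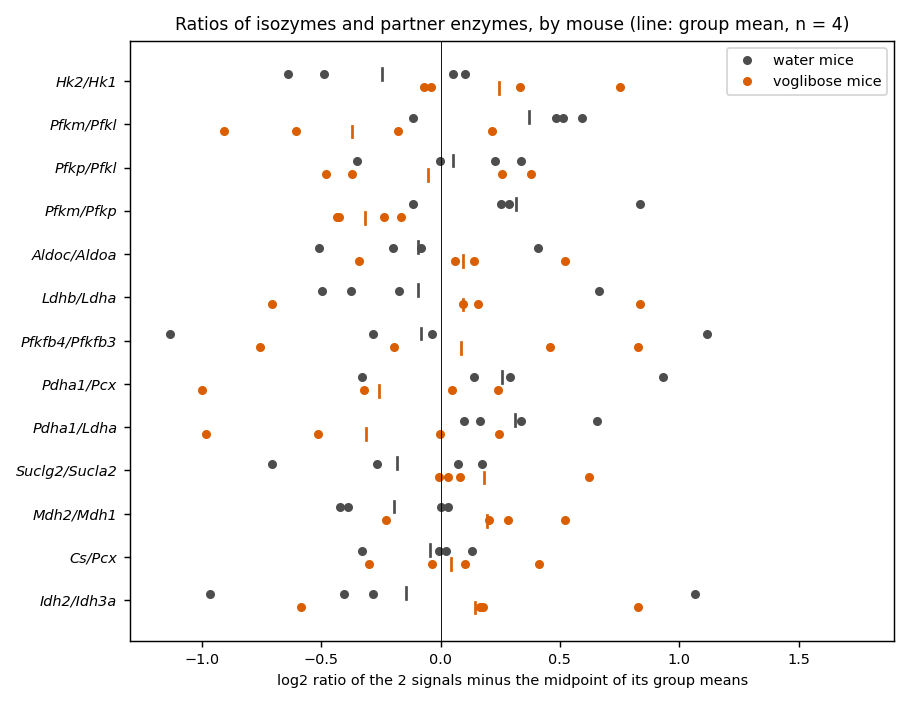
Log2 ratio of 2 enzyme signals in each mouse (horizontal axis, minus the midpoint of the group means), for the 13 ratios of isozymes and partner enzymes. Points are mice and short lines group means (n = 4 per group). Pfkm to Pfkp is the ratio whose groups do not overlap.

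The remaining ratios had overlapping groups. Hk2 to Hk1 was higher by 0.49 in voglibose mice (exact permutation p = 0.171), Idh2 to Idh3a by 0.29 (p = 0.543, exact permutation; 0.02 and 0.70 when water mice 4 and 2 were left out in turn) and Aldoc to Aldoa by 0.19 (p = 0.514, exact permutation). Pfkp to Pfkl, Pfkfb4 to Pfkfb3 and Cs to Pcx differed by -0.11, 0.17 and 0.09, with exact permutation p from 0.743 to 0.771. None of the 13 passed after adjustment. A ratio that alone reaches the smallest possible exact p, 0.0286, cannot pass it, so the adjusted values do not decide whether single ratios differ.

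The spread between mice of 1 group was shared by many of the enzymes. Water mouse 4 had the highest signal of the water mice in 23 of the 34 members (67.6%), against 30.4% of all probe sets and 33.2% of those above the median signal. Voglibose mouse 2 was highest of its group in 18 members (52.9%), against 25.9% of all probe sets, and both held in 15 members (44.1%, against 9.60%). These 15 were Pfkp, Aldoc, Tpi1, Gapdh, Pgk1, Pgam1, Pkm, Pfkfb3, Pfkfb4, Dlat, Idh3a, Idh3g, Dlst, Fh1 and Mdh1, from both pathways. Water mouse 2 was lowest of its group in 20 members (58.8%), against 26.9% of all probe sets and 33.6% of those above the median signal. Of these 20 members 13 belonged to pyruvate entry and the TCA cycle. Voglibose mouse 4 was lowest of its group in 11 of the 16 glycolytic members, against 23.1% of all probe sets. In the pyruvate and TCA members voglibose mouse 1 was lowest of its group in 10 of 18 (55.6%). This compares with 23.6% of all probe sets and 26.9% of those above the median signal. After a further quantile normalization the counts for water mouse 4, voglibose mouse 2 and water mouse 2 were 23, 18 and 19. The first 2 had the lowest and the last the highest distal ileal markers. In the same order the mean of the 6 proximal markers was 1.17, 1.30 and -1.60, that of smooth muscle -1.35, -0.26 and 1.41, and that of enterocytes -0.04, -0.04 and -0.06. The members were centred in the same way, and their median was 0.37 in water mouse 4, 0.12 in voglibose mouse 2 and -0.17 in water mouse 2, with -0.14 to 0.09 in the others. The part of position along the gut, of the muscle layer and of the pancreatic transcripts of voglibose mouse 2 in this spread was not tested. Without water mouse 4 and voglibose mouse 2, 15 members were higher and 19 lower in voglibose mice (median -0.018), and Pfkm alone of the 34 had an unadjusted p under 0.05.

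**Figure D4:**
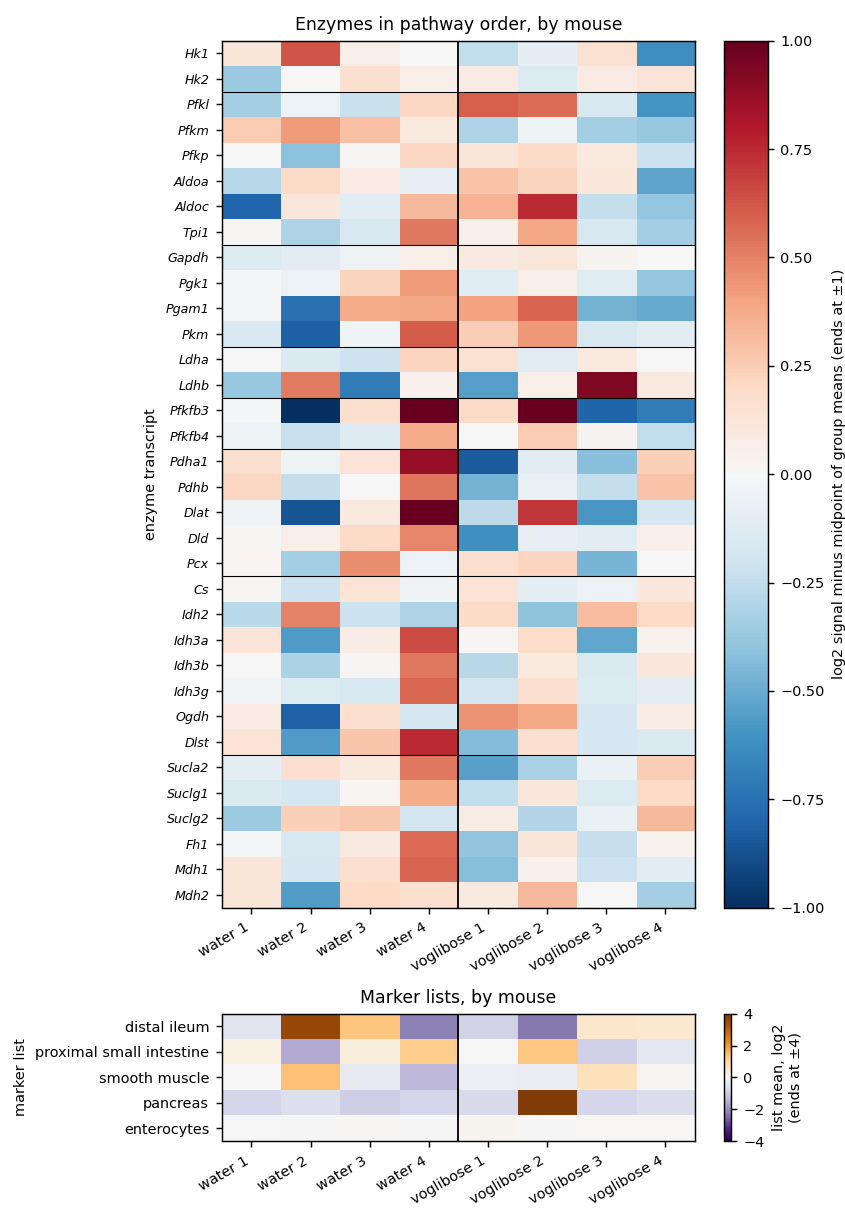
Signal of the 34 enzymes (upper panel, rows in pathway order) and mean of 5 marker lists (lower panel) in each mouse (columns), as log2 difference from the midpoint of the group means. Water mouse 4 is red for most enzymes and purple for distal ileal markers, voglibose mouse 2 stands out for pancreatic markers (5.67), and water mouse 2 is blue for most TCA enzymes.

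Transporters, kinases, subunits and neighbouring enzymes of the pathway were counted in the same way. Of 64 such genes 58 had a probe set, with 25 higher and 33 lower in voglibose mice and a median difference of -0.04. At an unadjusted p under 0.05 stood 4, or 6.90%, against 7.52% of all probe sets, and 0 passed over all probe sets (limma). All 4 were lower in voglibose mice: Pgm2, a phosphoglucomutase (-0.50 ± 0.19), the pyruvate dehydrogenase kinase Pdk3 (-0.52 ± 0.21), the succinate dehydrogenase assembly factor Sdhaf2 (-0.43 ± 0.18) and Mpc1, a subunit of the mitochondrial pyruvate carrier (-0.41 ± 0.18). Each of the 4 missed that p when some single mouse was left out, and Mpc1 was then -0.27 without voglibose mouse 1. Pklr, the pyruvate kinase of liver and gut epithelium, had 12.99, 12.14, 13.25 and 13.10 in water mice and 13.13, 13.93, 13.23 and 13.34 in voglibose mice. Water mouse 2 was lowest and voglibose mouse 2 highest, and the difference of 0.54 ± 0.26 was 0.29 without water mouse 2. The groups stood apart for 2 of the 58 genes, against 4.35% of all probe sets, which is a share near the background. Both were dim and named after their values were seen, the hexokinase Hk3 (0.25 ± 0.13) and the enolase Eno2 (-0.25 ± 0.13).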

How the data were processed

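RNA of 8 ilea (4 mice per group, 250 ng of total RNA per array) was measured on Affymetrix arrays. The authors deposited log2 values for each probe set. Per the submitters' processing notes, RMA and the Transcriptome Analysis Console were used, without versions. The log2 scale was read from the values (2.09 to 19.55), and the genome build behind the probe sets is not given in the sources used here. RMA evens out the arrays, so a change in total RNA would not be seen. Groups came from the sample labels, which name no batch.

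All 22206 probe sets entered limma 3.58.1 (R 4.3.3; lmFit and eBayes, 11.1 total degrees of freedom), 2-sided, with Benjamini-Hochberg adjustment over all of them and a threshold of 0.05. For a gene with several probe sets the one with the highest mean was used. Ratios were compared by exact permutation over 70 arrangements of mice, adjusted over 13 ratios. One listed ratio needed Pfkfb2 and was not computed. Both tests were tested on simulated data. The enzymes, gene lists, ratios and tests were chosen with earlier results of these data known. All members are named. Values of every mouse are given for members at an unadjusted p under 0.05, for those whose groups do not overlap and for a fixed panel of 10. Of the other pathway genes, those at an unadjusted p under 0.05 and Pklr are named, and other genes of that rule are not reported here. Hk3, Eno2 and the genes induced by hypoxia-inducible factor fall outside the rule and were named after their values were seen. Alternatives were another normalization, other variance models, a filter on dim probe sets, a replicate block and leaving out mice. Promoter windows came from a RefSeq table. The precision is limited by the number of arrays. Plots used matplotlib 3.10.9 (Python 3.11.15).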

Additional observations from a re-analysis of the deposited data

Results flagged for a closer look

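In 3 of 78 groups of 4 mice examined, 1 mouse lay far from the other 3, and chance gives about 1 in 20. Idh2 had 10.90 in water mouse 2, where the other water mice had 10.09 to 10.19. Idh2 also had 10.00 in voglibose mouse 2, where the others of that group had 10.59 to 10.71. Mdh2 had 14.63 in water mouse 2, and the other water mice 15.31 to 15.39. Water mouse 2 had the highest and voglibose mouse 2 the lowest mean of the distal ileal markers, and the part of this in the 3 values was not tested.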

How the results depend on the processing

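Pfkm kept its direction and an unadjusted p under 0.05 in each alternative that held it, and its adjusted p ran from 0.515 to 0.994. A filter on probe sets above the median signal removed it. No member passed an adjusted p of 0.05 in any alternative. The count of members at an unadjusted p under 0.05 was 4 with trend and robust variance fitting, 0 among probe sets above the median signal, and 1 to 4 without single mice. The count over all 22206 probe sets was 1671 with all mice and 1641 with trend and robust variance fitting. It was 988 among the 11101 above the median signal, and 969 (without voglibose mouse 1) to 1906 without single mice. That of ratios at p under 0.05 was 0 without voglibose mouse 1, 2 or 3 and 2 without voglibose mouse 4 (Pdha1 to Ldha and Mdh2 to Mdh1). The median difference of the members ran from -0.15 to 0.058 without single mice and was 0.029 after a further quantile normalization, so its sign is not settled. After that normalization Tpi1 was 0.034 and Suclg1 0.024. Without water mouse 4 and voglibose mouse 2, Aldoa was -0.043, Tpi1 0.0033, Pgam1 -0.063, Suclg1 0.040 and Mdh2 -0.0067. Differences near 0 changed sign when single mice were left out, with these ranges: Hk2 -0.029 to 0.15, Pfkp -0.023 to 0.18, Aldoa -0.043 to 0.23, Tpi1 -0.17 to 0.14, Pgam1 -0.25 to 0.17, Pkm -0.035 to 0.44, Ldhb -0.0067 to 0.49, Pfkfb3 -0.63 to 0.32, Pfkfb4 -0.07 to 0.14, Dlat -0.47 to 0.19, Pcx -0.16 to 0.11, Cs -0.013 to 0.10, Idh3a -0.36 to 0.048, Idh3b -0.23 to 0.047, Idh3g -0.20 to 0.045, Suclg1 -0.11 to 0.083, Suclg2 -0.098 to 0.12, Mdh2 -0.14 to 0.15, Pfkp to Pfkl -0.25 to 0.035, Ldhb to Ldha -0.057 to 0.46, Pfkfb4 to Pfkfb3 -0.18 to 0.57 and Cs to Pcx -0.033 to 0.20. The causes were not tested.

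With the replicate number as a block, 4 members (Pfkm, Pdha1, Dld and Sucla2) and 1529 probe sets had an unadjusted p under 0.05. Same-numbered mice did not deviate together (correlations 0.015, -0.324, 0.0141 and -0.184 over probe sets, and 0 of 8 mice correlated best with their own number), so the numbers were not taken as pairs. For ratios the same-numbered differences have the same means, and 4 pairs cannot reach a p under 0.05. The ratios without 2 mice cannot reach it either. No member had several probe sets, so that alternative gave no other value. Pfkm, Ldhb and Pcx lay below the median signal, and the part of background in their values was not measured.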

Other observations

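Of 14 genes induced by hypoxia-inducible factor or encoding it (none a member), 9 were higher and 5 lower in voglibose mice, with a median difference of 0.09. At an unadjusted p under 0.05 stood 1 (7.14%, against 7.52% of all probe sets, so no more than the background), and 0 passed over all probe sets (limma). It was Vegfa, the main growth factor of blood vessels, named after its values were seen, with 11.16, 11.24, 10.77 and 10.75 in water mice and 12.14, 11.93, 11.20 and 11.39 in voglibose mice. The groups overlapped only at voglibose mouse 3 and water mouse 2, and the difference was 0.69 ± 0.22. Hif1a itself differed by -0.21 ± 0.23. The glucose transporter Slc2a1 and the kinase Pdk1, which belong to both lists, differed by 0.06 ± 0.16 and 0.14 ± 0.19.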
